A study of Mus musculus with 59 samples.

Results

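Scraped luminal epithelium (LE) was compared with an undigested piece of whole uterus (U) of the same 4 epiERα-/- knockout mice, numbers 21, 25, 26 and 27, on the day of the mating plug (D0.5). These 8 libraries, of 59 in the series, were taken by the animal number in their labels, since LE and U with the same number came from 1 uterus. In knockout females 1 Esr1 allele was floxed and the other was null (Esr1f/-), Esr1 being the gene of oestrogen receptor alpha, and they carried Wnt7aCre, a Cre recombinase driven by Wnt7a and active in the epithelium of the uterus. Control females had the same Esr1f/- alleles and no Cre, so that every group lacked 1 Esr1 allele in all cells. The females were virgin, about 2 to 6 months old, and had been mated with wild-type males. Besides the 4 knockout D0.5 mice, 4 knockout mice of D3.5 and 6 control mice of D0.5 with both tissues were used as sets for comparison. For LE, the slit horns, still joined by the cervix, were kept in 0.5% dispase for 30 min and the epithelium was scraped out. U was part of a horn flash-frozen without digestion, and DU, used beside them, was a piece of the digested uterus frozen before scraping. Each tissue formed 1 batch of RNA isolation. Tissue, digestion and isolation batch therefore cannot be told apart in LE against U.

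The luminal epithelium is a single layer of columnar cells that lines the uterine cavity and continues into the glands. Beneath it lie the stroma, which holds fibroblasts, vessels and leukocytes, and the smooth muscle of the myometrium, with a mesothelium on the outer surface. Oestrogen high at mating acts through oestrogen receptor alpha in both epithelium and stroma, and part of what the epithelium does follows signals that the stroma sends. Whole uterus contains the epithelium too, so a transcript found in epithelial cells alone is diluted in U and not absent from it.

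The LE libraries held 16.6 to 37.9 megacounts (estimated counts divided by 1e+06) and the U libraries 16.2 to 108 megacounts. Levels are given as CPM, counts scaled to a common library total with TMM factors, always in the order of mice 21, 25, 26 and 27. Of 21706 genes in the tables, 15030 had enough counts to be tested. Fold changes are log2 values of LE over U from edgeR's quasi-likelihood test with the mouse as a block, and a gene was called at a Benjamini-Hochberg adjusted p under 0.05. With 4 pairs, an exact two-sided permutation of the signs for 1 gene cannot reach 0.05, so the calls rest on the model fitted across all genes. In pieces of tissue, fewer cells of a type and less RNA per cell cannot be told apart.

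The targeted gene was lower in the epithelium of every knockout mouse. Esr1 had 61.8, 36.1, 40.9 and 35.3 CPM in LE, against 110, 94.6, 103 and 107 CPM in U. The 4 LE libraries all lay below the 4 U libraries, with LE of mouse 21 the highest of its group. Means were 43.5 ± 12.4 CPM in LE and 104 ± 6.69 CPM in U (SD, n = 4 each), and the fold change on the log2 scale was −1.29 (SE 0.17, adjusted p = 0.000823). Leaving out each mouse in turn gave −1.44 to −1.18, and a test against a log2 fold change of 1 did not call it. The 3 further knockout LE libraries of D0.5 without a U partner had 66.9, 65.8 and 41 CPM, so Esr1 counts remained in LE of all 7 mice. In control mice of D0.5 the log2 fold change of LE over U was 0.21 in the fit of 17 mice. The difference of −1.50 (SE 0.18, adjusted p = 0.000328) between knockout and control passed the test. Which exons the counts came from is not known here, since the tables give 1 value per gene.

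Of the 7 tested steroid receptor genes, 3 were called lower in LE and none higher, beside 23.5% of all genes tested called lower and 17.9% called higher. Pgr, the progesterone receptor, had 26.2, 8.88, 10.9 and 8.81 CPM in LE, against 46.7, 28.5, 46.2 and 74.5 CPM in U. LE of mouse 21 came close to U of mouse 25 but the groups did not overlap, and LE over U was −1.90 (SE 0.34, adjusted p = 0.00347) on the log2 scale. The glucocorticoid receptor gene Nr3c1 did not pass, with 67.3 ± 16.2 CPM in LE and 66.8 ± 18.8 CPM in U. Esr2, the gene of oestrogen receptor beta, stayed under 2 CPM in all 8 libraries and was not called (log2 fold change −0.41, SE 1.25).

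Across all genes 6219 were called, 2683 higher (17.9%) and 3536 lower (23.5%) in LE, and 6111 of them had the same sign in all 4 pairs. The list counts below are to be read against these shares. The median over all genes tested was −0.05. Called genes were spread unevenly in size. A log2 fold change of at least 2 was reached by 172 genes higher in LE and by 1900 genes lower in LE, and at least 5 by 3 genes higher and 340 lower. The paired fold changes of the cell type markers, shown by list in the plot of marker genes, followed the same shape.

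**Figure D1:**
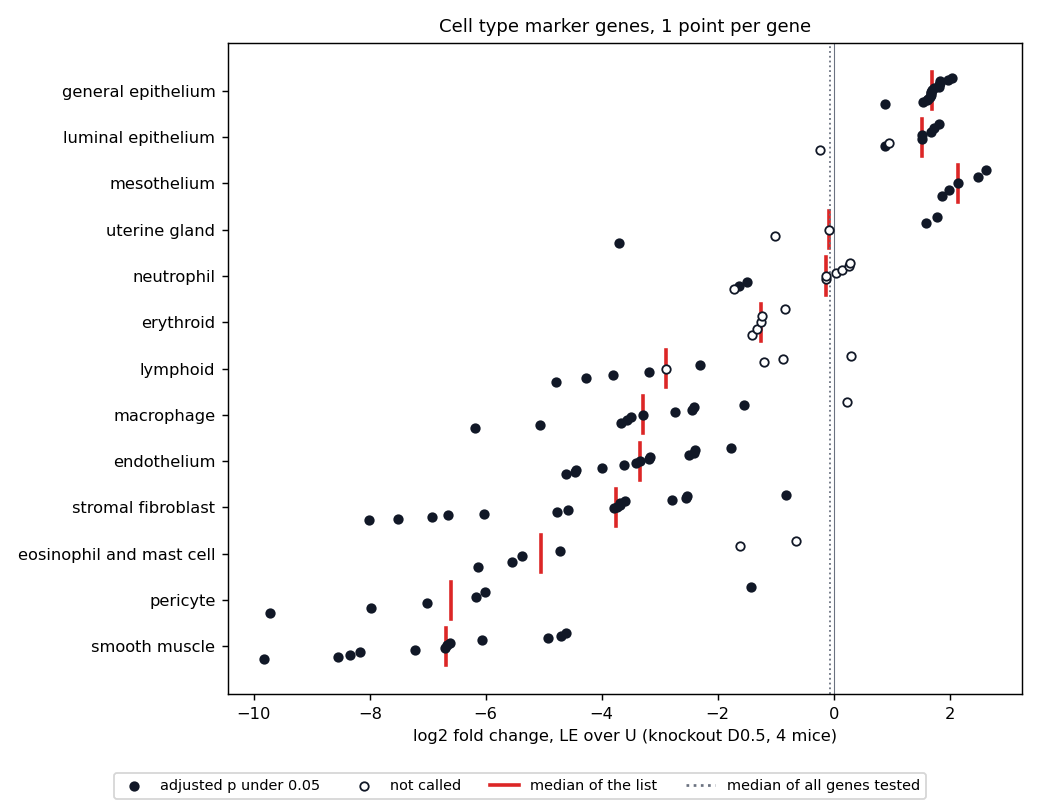
Log2 fold change of LE over U (x axis) for the members of 13 cell type lists (rows), 1 point per tested gene in the 4 knockout D0.5 mice, filled where called and open where not. Epithelial and mesothelial lists sit to the right, with medians of 1.69 and 2.14 for general epithelium and mesothelium, while the smooth muscle median lies at −6.69 and the neutrophil median at −0.12.

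Epithelial markers rose together and by a narrow range of folds. All 16 general epithelial genes were called higher in LE, with a median log2 fold change of 1.69 against −0.05 over all genes. Epcam, a cell adhesion protein of epithelia, had 949.7, 884, 688 and 884 CPM in LE, against 226, 249.8, 237 and 231 CPM in U, which is 1.84 (SE 0.15, adjusted p = 0.000138) on the log2 scale. Every LE library held more than every U library, by a similar step in each mouse. Cldn7, a claudin of tight junctions, rose most of this list at 2.04 (SE 0.17, adjusted p = 0.000136), with 1387 ± 341 CPM in LE and 334 ± 68.4 CPM in U (SD, n = 4 each). Cd24a, a surface glycoprotein that leukocytes carry too, rose least at 0.89. Summed over the list, LE held 10470 to 10940 CPM and U 2791 to 3618 CPM. Of the 2491 genes called higher with at least 10 CPM in LE, 91 exceeded the fold of Cldn7.

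Genes known from the luminal layer followed, with 6 of 8 called higher and none lower. Wnt7b, a secreted Wnt ligand, had 88.5, 103, 145 and 129 CPM in LE, against 24.9, 33.7, 32.9 and 39.6 CPM in U, or 1.82 (SE 0.16, adjusted p = 0.000147) on the log2 scale, without overlap of the groups. Klf5, a transcription factor that the luminal epithelium needs for implantation, rose by 1.74 (adjusted p = 0.000106), and Lpar3, a lysophosphatidic acid receptor also needed for implantation, by 1.68 (adjusted p = 0.000278). Gabrp, a subunit of a GABA-gated chloride channel, differed widely between mice but not in its step, with 1512, 639, 555 and 277 CPM in LE, against 439, 209.8, 251 and 91.8 CPM in U (1.53, adjusted p = 0.000304). Wnt7a, whose promoter drives the Cre, had 21.9, 13.1, 16.6 and 41.9 CPM in LE, against 7.14, 8.38, 18.5 and 12.5 CPM in U. Its U library of mouse 26 exceeded 2 of the LE libraries, and LE over U, at 0.96 on the log2 scale (SE 0.34, adjusted p = 0.052), did not pass. It was called without mouse 26 (1.33, adjusted p = 0.0133).

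Gland genes did not move as 1 group: of 5 tested, 2 were called higher and 1 lower. Foxa2, a transcription factor found in uterine glands and not in the luminal layer, had 44.7, 102, 110.3 and 39 CPM in LE, against 14.4, 40.8, 20.4 and 11.4 CPM in U, or 1.79 (SE 0.21, adjusted p = 0.000491) on the log2 scale. Each mouse had more Foxa2 in LE than in U, although U of mouse 25 overlapped LE of mouse 27. Sox9, a transcription factor of glands and other ducts, rose by 1.59 (adjusted p = 0.00121). Spink1, a secreted protease inhibitor, went the other way with 0.256, 1.69, 0.752 and 0 CPM in LE, against 3.54, 19.1, 10.8 and 0.0437 CPM in U (−3.69, adjusted p = 0.000287). Cxcl15, a chemokine of lung and uterine glands, had 5.78 ± 5.27 CPM in LE and 9.43 ± 5.4 CPM in U and was not called (log2 fold change −1.02, adjusted p = 0.0983).

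Muscle, stroma and vessels were lower in LE to very different degrees. All 12 tested smooth muscle genes were called lower, with a median log2 fold change of −6.69. Myh11, the smooth muscle myosin heavy chain, had 3.33, 6.19, 0.376 and 1.11 CPM in LE, against 1550, 2550, 1483 and 2349 CPM in U, or −9.82 on the log2 scale (SE 0.64, adjusted p = 5.87e-05). No LE library came near a U library. The summed list gave 49 to 186 CPM in LE and 6570 to 16310 CPM in U. All 6 pericyte genes were lower, from −1.43 for Notch3, a receptor that epithelia also express, to −9.73 for Rgs5, a regulator of G protein signalling in pericytes.

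Fibroblast transcripts kept a larger remainder in LE. All 16 stromal fibroblast genes were called lower, with a median of −3.76, and their sum was 1068 to 2171 CPM in LE against 10470 to 23590 CPM in U. Dcn, the matrix proteoglycan decorin, had 599, 722, 335 and 248 CPM in LE, against 2452, 2900, 2462 and 2327 CPM in U (−2.54, SE 0.25, adjusted p = 0.000243), while Pdgfra, a growth factor receptor of fibroblasts, had 6.2, 4.25, 1.03 and 1.25 CPM in LE, against 465, 439.6, 428 and 736 CPM in U (−7.52, SE 0.57, adjusted p = 0.0001). Both separated the tissues without overlap, with a far smaller step for Dcn than for Pdgfra. Dpt, the matrix protein dermatopontin, fell by 8.02 and Hand2, a stromal transcription factor that acts on epithelial growth, by 4.77. Fbln1, the matrix protein fibulin 1, fell least, with 166, 143, 113 and 206 CPM in LE, against 256, 324, 225 and 282 CPM in U (−0.81, adjusted p = 0.00612).

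Endothelial genes and most macrophage genes were lower in LE. All 13 endothelial genes were called lower (median −3.34). Pecam1, an adhesion molecule of endothelium, had 9.8, 26.5, 2.54 and 15.3 CPM in LE, against 101, 133, 153 and 154 CPM in U, lowest in LE of mouse 26. Of 11 macrophage genes 10 were lower (median −3.29). Csf1r, the receptor for macrophage growth factor, had 42.1, 33.9, 32.7 and 40.8 CPM in LE, against 80.6, 124, 121 and 112 CPM in U (−1.54, SE 0.20, adjusted p = 0.000732), and C1qb, a complement chain made by macrophages, fell by 3.29. The exception was Cd68, a lysosomal protein, with 67.5 ± 16.3 CPM in LE and 57.1 ± 12.5 CPM in U (0.23, adjusted p = 0.47). Lymphoid genes were called lower for 5 of 9 and eosinophil and mast cell genes for 4 of 6.

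Most neutrophil transcripts were not called. S100a8, a calcium-binding protein that neutrophils hold in large amounts, had 445, 239, 369 and 926 CPM in LE, against 527, 539.9, 292 and 641 CPM in U, with overlapping groups (−0.13 on the log2 scale, SE 0.28, adjusted p = 0.742). Csf3r, the receptor for the neutrophil growth factor, had 382 ± 187 CPM in LE and 343 ± 73.9 CPM in U (0.035). Of 9 tested neutrophil genes 2 were called lower, near the share of all genes tested (23.5%). They were Retnlg (−1.63) and Mmp8 (−1.49), both products of maturing neutrophils. Neither call held without mouse 25, where the values were −1.12 and −1.29, or without mouse 26, where they were −1.27 and −1.13. The list had a median of −0.12. None of the 5 erythroid genes was called (median −1.25), although Hbb-bs, a beta globin, was called without mouse 21 (−1.81 against −1.25 with all mice). The globin copies are nearly identical, so their single values are uncertain.

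Mesothelial genes were higher in LE, all 5 of 5, with a median of 2.14, beside 17.9% of all genes called higher. Msln, the mesothelial surface protein mesothelin, had 89.1, 83.9, 63.7 and 67.9 CPM in LE, against 22.2, 17.9, 2.72 and 23 CPM in U (2.49, SE 0.45, adjusted p = 0.00365). LE of the 4 mice was narrow and U of mouse 26 was lowest by far. Upk3b, a uroplakin of mesothelium, had 124, 160.5, 109 and 99.5 CPM in LE, against 32, 47.5, 12.8 and 43.6 CPM in U (1.98, adjusted p = 0.00137). Muc16, a mucin of this list, rose by 1.87 (adjusted p = 0.023) and was not called without mouse 25 (1.66, adjusted p = 0.0961). Summed, the 5 genes gave 221 to 354 CPM in LE and 18.6 to 94.9 CPM in U. The part of mesothelial cells in the LE results was not tested.

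**Figure D2:**
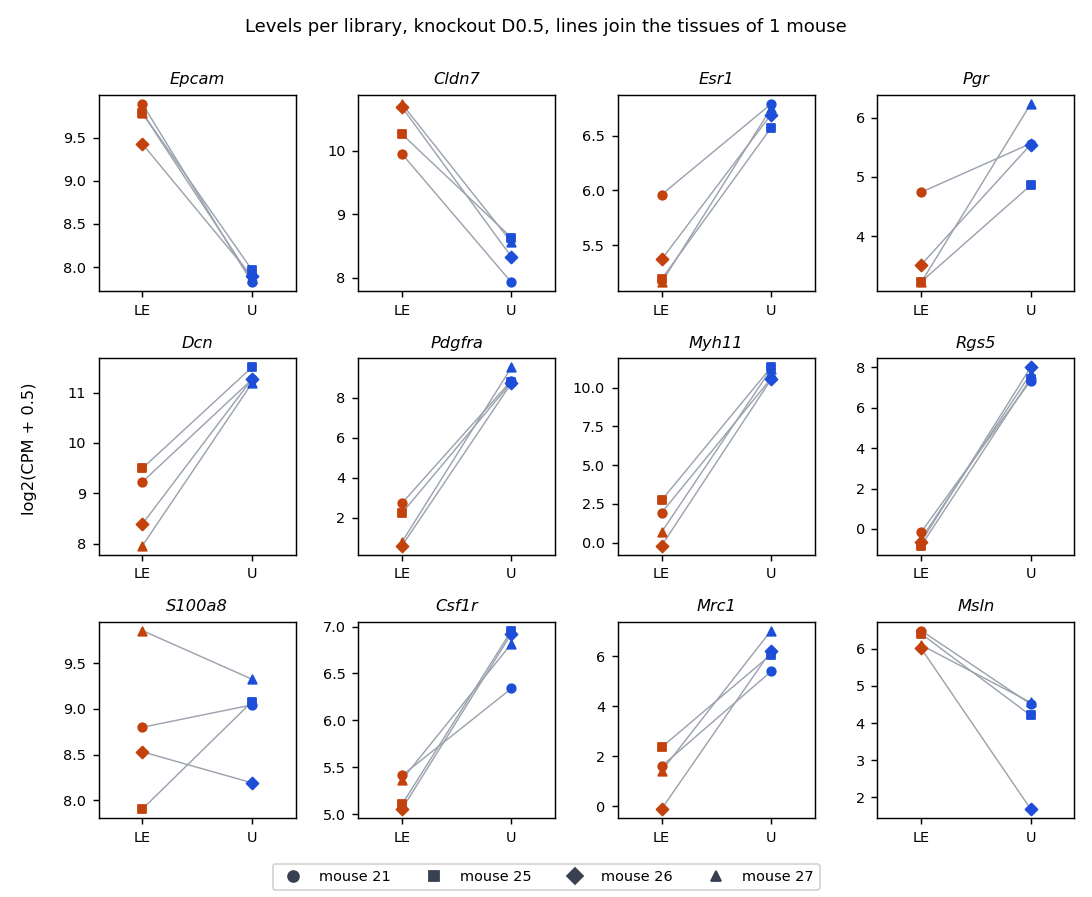
Level per library as log2(CPM + 0.5) for 12 genes in LE (left of each panel) and U (right), with a line for each of the 4 knockout D0.5 mice and its own marker shape. In every mouse LE lies above U for Epcam, Cldn7 and Msln and far below U for Myh11 and Rgs5, while the lines cross for S100a8.

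Among named genes with at least 10 CPM in 1 tissue and 1 direction in all pairs, the highest folds belonged to a few transcripts of low level in U. Krt15 and Krt5, keratins of basal cells in stratified epithelium, had log2 fold changes of 5.07 (SE 0.55) and 4.95 (SE 0.29), Krt14, the partner of Krt5, had 4.46 (SE 0.36), and Fat2, a large cadherin of stratified epithelium, 3.63 (SE 0.52). Muc5b, a gel-forming mucin, had 16.4, 25.9, 5.26 and 1.87 CPM in LE, against 0.677, 0.384, 0.288 and 0.0874 CPM in U (4.96, SE 0.45, adjusted p = 0.000189). Olfm4, a secreted protein of gut and endometrial epithelium, had 337, 552, 50.4 and 63.4 CPM in LE, against 14.8, 13.1, 4.12 and 18.9 CPM in U (3.87, SE 0.58, adjusted p = 0.00152), and Muc13, a membrane mucin, rose by 3.01. Aqp4, a water channel, had 524, 294, 71 and 42.3 CPM in LE, against 103, 13.6, 7.42 and 6.86 CPM in U (3.16, SE 0.35, adjusted p = 0.000389). For Aqp4 the U library of mouse 21 lay above LE of mice 26 and 27, although LE was higher within each mouse. Sprr2d, a cornified envelope precursor, rose by 3.15 (SE 0.27), and reads of the nearly identical Sprr2 genes may have been shared among them.

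The lowest folds belonged to genes absent or nearly absent from the scraped epithelium. No count of Trhde, a peptidase that cleaves thyrotropin-releasing hormone, was found in the 4 LE libraries, against 18.1, 12.3, 16.7 and 13.3 CPM in U. Taking 3 counts over the 4 LE libraries as the floor, it was at least 438-fold lower in LE. By the same floor Itga8, an integrin chain of mesenchyme, was at least 439.7-fold lower and Npas4, an activity-induced transcription factor, at least 292-fold lower, with counts of 0 in LE. Jchain, the joining chain of secreted antibodies, had 3 counts in LE and 13693 in U, or 0.0456% of the level of U (95% exact interval 0.0094% to 0.133%, counting error only). Floors and intervals cover counting error only. Hmcn2, an extracellular hemicentin, had 0.171, 0, 0 and 0 CPM in LE, against 184, 89.7, 34.5 and 54.8 CPM in U (−10.67, SE 0.41). Col6a4, a collagen VI chain, had 1.65 ± 1.4 CPM in LE and 967 ± 288 CPM in U (−9.38, SE 0.58), and Slc26a7, an anion exchanger, and Aspg, an asparaginase, fell by 9.47 and 9.96.

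Chemokines and cytokines were divided between the tissues, with 9 of 22 called higher in LE and 7 lower, beside 17.9% and 23.5% of all genes. Cxcl5, a chemokine that attracts neutrophils, had 2369, 5849, 6273 and 5511 CPM in LE, against 687, 1267, 761 and 1674 CPM in U (2.19, SE 0.24, adjusted p = 0.000403). All LE libraries lay above all U libraries, with mouse 21 lowest in LE. Ccl20, which attracts lymphocytes and dendritic cells to mucosa, had 26.5, 303, 493 and 262 CPM in LE, against 8.39, 69.6, 7.83 and 67.9 CPM in U (2.72, SE 0.69, adjusted p = 0.0155). U of mice 25 and 27 exceeded LE of mouse 21, so the groups overlapped while each pair pointed the same way. Csf3, the growth factor of neutrophils, had 194, 571, 2203 and 1853 CPM in LE, against 19.6, 371, 71.6 and 359 CPM in U (2.81, SE 0.65, adjusted p = 0.0108), and Cxcl1, another neutrophil attractant, had 73.4, 435, 1025 and 653 CPM in LE, against 15.3, 239, 32.8 and 210.1 CPM in U (2.32, SE 0.62, adjusted p = 0.0189). Cxcl1 was not called without mouse 21 (2.35, adjusted p = 0.0565). Il6, a cytokine of the acute response, had 0.796, 7.94, 17.4 and 26.9 CPM in LE, against 0, 1.34, 0 and 9.57 CPM in U (3.41, SE 1.04, adjusted p = 0.0321). Its call was lost without mouse 21 (3.17) or mouse 25 (4.05). Without mouse 26 the values were 1.91 for Ccl20, 2.11 for Csf3, 1.58 for Cxcl1 and 2.34 for Il6, all called, and Il6 was 4.91 without mouse 27. Cxcl2, an attractant close to Cxcl1, had 318, 600.2, 1750 and 1221 CPM in LE, against 365, 524, 138 and 263 CPM in U and was not called (1.43, SE 0.64, adjusted p = 0.111).

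Of the 7 chemokine and cytokine genes called lower, Cxcl9 (−1.84) and Ccl5 (−1.77) had the smallest steps. The call of Cxcl9 was lost without mouse 25 (−1.52) or 27 (−1.51), and that of Ccl5 without mouse 25 (−1.44). Ccl11, which attracts eosinophils, had 0.739, 1.75, 0.282 and 0.694 CPM in LE, against 126, 256, 102 and 276 CPM in U (−7.79, SE 0.30, adjusted p = 1.58e-05). Cxcl12, a stromal chemokine for lymphocytes and progenitor cells, had 2.93, 5.19, 1.93 and 1.32 CPM in LE, against 198, 220.1, 212 and 92.5 CPM in U (−6.08, SE 0.27, adjusted p = 1.99e-05). Neither overlapped between the tissues, and both stayed under 6 CPM in LE. Ccl7, an attractant of monocytes, had 1.67 ± 1.4 CPM in LE and 61.5 ± 56 CPM in U (−4.90), where U of mice 25 and 27 stood near 110 CPM and U of mice 21 and 26 near 13 CPM.

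Of 14 chemokine and cytokine genes with a promoter window in the RefSeq table, 4 held a match to the NF-kappaB consensus, the binding pattern of the NF-kappaB family that many inflammatory signals use. The 4 genes were Cxcl1, Cxcl2, Ccl20 and Il6, 3 of them called higher in LE and Cxcl2 not called. Both strands were searched in windows of 300 bases. A match was held by 4 of 15 windows of this list (26.7%), 8.46% of all 32851 windows and 10.3% of those of tested genes. Their 250 bases before the annotated start are shown because these 4 genes of 1 list were each lowest in LE of mouse 21 and hold the match. Cxcl5 and Csf3 of the same list were lowest in LE of mouse 21 too and are not among the 4. A link between the match and the levels was not tested. The runs are on the plus strand of GRCm38.p6, 5′ to 3′, with the match in capitals, at chr5:90890995-90891244 for Cxcl1, chr5:90903649-90903898 for Cxcl2, chr1:83116516-83116765 for Ccl20 and chr5:30012864-30013113 for Il6.
Cxcl1: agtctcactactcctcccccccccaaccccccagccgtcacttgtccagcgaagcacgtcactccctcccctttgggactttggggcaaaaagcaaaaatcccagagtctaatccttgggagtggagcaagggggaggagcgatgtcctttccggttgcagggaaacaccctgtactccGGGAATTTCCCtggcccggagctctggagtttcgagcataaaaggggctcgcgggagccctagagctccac
Cxcl2: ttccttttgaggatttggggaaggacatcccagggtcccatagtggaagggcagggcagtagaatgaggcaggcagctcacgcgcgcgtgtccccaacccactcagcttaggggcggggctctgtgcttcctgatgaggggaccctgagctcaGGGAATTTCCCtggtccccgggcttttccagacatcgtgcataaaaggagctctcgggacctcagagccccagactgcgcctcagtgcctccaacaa
Ccl20: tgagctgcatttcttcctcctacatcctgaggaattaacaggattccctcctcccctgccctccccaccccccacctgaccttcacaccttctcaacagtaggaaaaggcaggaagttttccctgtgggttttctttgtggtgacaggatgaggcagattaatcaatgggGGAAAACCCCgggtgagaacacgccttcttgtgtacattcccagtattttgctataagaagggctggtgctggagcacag
Il6: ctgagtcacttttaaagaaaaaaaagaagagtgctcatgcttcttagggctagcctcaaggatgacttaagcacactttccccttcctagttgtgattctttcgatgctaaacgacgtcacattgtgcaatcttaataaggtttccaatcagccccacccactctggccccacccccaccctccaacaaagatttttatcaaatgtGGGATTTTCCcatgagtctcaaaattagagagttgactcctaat
The match begins 71, 97, 80 and 44 bases before the start in that order, and Cxcl1 and Cxcl2 carry the same run of letters. The motif and the genes were chosen after their values were seen, and a match of letters is not a measured binding site.

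Some keratin, cytokine and interferon-stimulated genes varied more between mice than between the tissues of a mouse, as the plot of mouse differences shows. Krt5 had 135, 162, 12.9 and 0.902 CPM in LE, against 5.1, 5.23, 0.206 and 0.0874 CPM in U, and Krt15 had 41, 82.2, 3.85 and 0.208 CPM in LE, against 2.6, 0.996, 0.124 and 0.0437 CPM in U. LE of mice 21 and 25 held far more of both keratins than LE of mouse 27, while LE exceeded U in each mouse. LE of the unpaired knockout mice 22, 23 and 24 had 19.7, 5.68 and 75.8 CPM of Krt5. Control mice varied too: LE of control mouse 9 had 215 CPM of Krt5, 83 CPM of Krt14 and 51.5 CPM of Krt15. Krt5 stayed under 1 CPM in LE of the 5 other control mice with both tissues. Control LE libraries without a U partner were not included. Muc5b and Olfm4 were likewise highest in LE of knockout mice 21 and 25. The scraped horns were joined by the cervix, which has a stratified epithelium, and the part of cervical cells in the values of these genes was not tested.

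A second group ran the other way across mice. Lif, a cytokine needed for implantation, had 35.4, 218, 936 and 1161 CPM in LE, against 7.34, 130.1, 26.1 and 246 CPM in U (2.51, SE 0.65, adjusted p = 0.0168), so that LE of mice 26 and 27 stood highest and LE of mouse 21 lowest. The fold was 1.75 without mouse 26. Csf3 and Cxcl1, given above, had the same order of extremes in LE, mice 26 and 27 at the top and mouse 21 at the bottom. With DU in place of U, Lif was no longer called (2.19, SE 0.76, adjusted p = 0.0577).

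Several interferon-stimulated genes stood high in mouse 21 in both tissues. Ifi44, an interferon-induced protein, had 476, 61, 48.3 and 70.8 CPM in LE, against 153, 37.3, 25 and 33.1 CPM in U (1.10, SE 0.18, adjusted p = 0.00226). Rsad2, an antiviral enzyme, had 393, 43.5, 11.7 and 90.6 CPM in LE, against 163, 29.8, 11.8 and 56.2 CPM in U. Both tissues of mouse 21 exceeded those of all other mice for these genes, and the LE step within a mouse was smaller than the gap between mice. Of 14 tested members of this list 9 were called higher and 1 lower. The call of Rsad2 (0.64) was lost without mouse 21 (0.42), 25 (0.68) or 27 (0.62), and that of Ifit2, the gene called lower (−1.70), without mouse 25 (−1.73), 26 (−1.15) or 27 (−1.39). Without the mouse as a block 1 member was called higher.

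**Figure D3:**
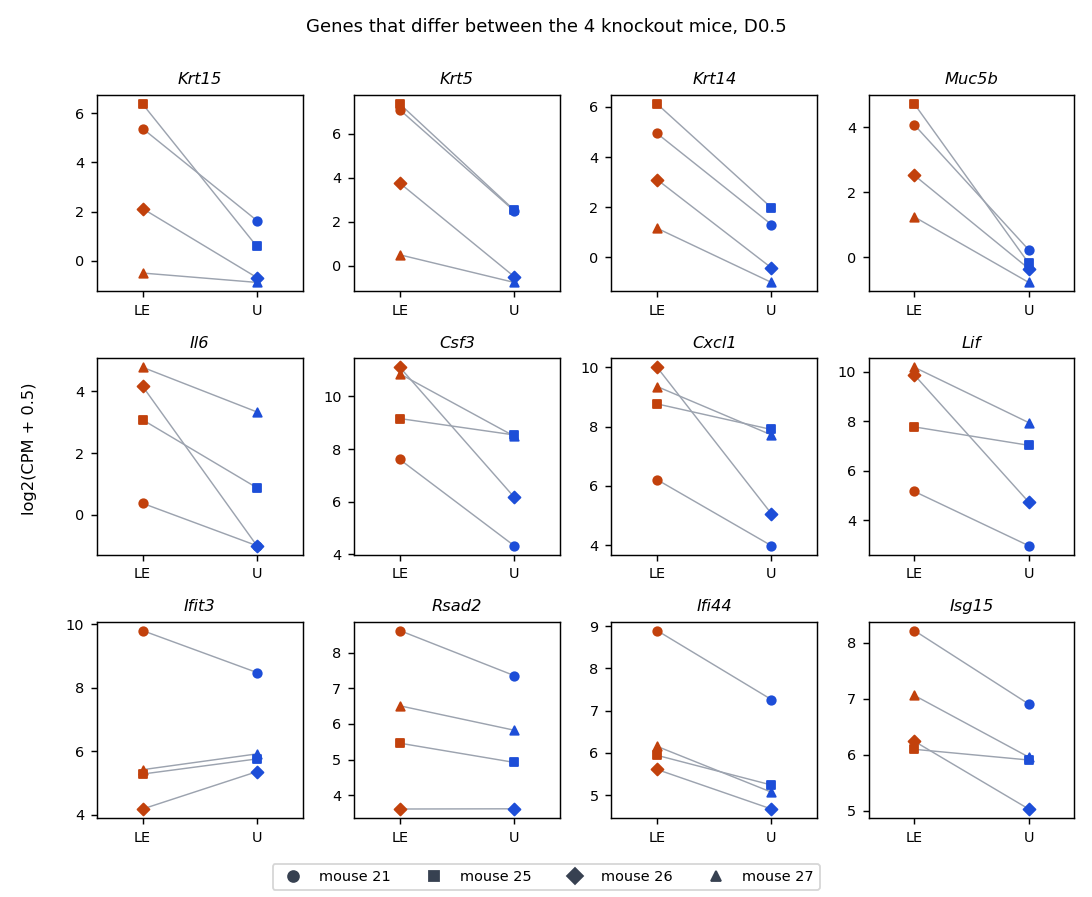
Level per library as log2(CPM + 0.5) in LE (left) and U (right) for basal keratins and Muc5b (top row), cytokines (middle row) and interferon-stimulated genes (bottom row), with a line for each of the 4 knockout D0.5 mice. Mice 21 and 25 lie on top for the keratins, mice 26 and 27 hold the highest LE points for these 4 cytokines, and mouse 21 lies on top in both tissues for these 4 interferon genes.

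Signals known to pass between epithelium and stroma were found on both sides. In the Hedgehog pathway, where epithelial Ihh acts on stromal receptors, 7 of 9 tested genes were called lower in LE and none higher. The lower calls of Smo (−0.49) and Nr2f2 (−0.83) were lost without mouse 26 or mouse 27. Ihh itself, the ligand, stayed under 4 CPM in all 8 libraries and was not called (−0.87, SE 0.68). Gli1, a transcription factor and target of the pathway, had 2.13, 0.75, 0.47 and 1.6 CPM in LE, against 21.1, 28.4, 33.7 and 36.7 CPM in U (−4.67, SE 0.46, adjusted p = 0.000247), and Gli2, its activator, fell by 4.57 (SE 0.52). For both genes every LE library lay far below every U library. Ptch1, the Hedgehog receptor, had 54, 19.8, 13.1 and 21.2 CPM in LE, against 60.7, 17.1, 25.5 and 26.7 CPM in U and was not called (−0.31, SE 0.22).

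Among 20 tested Wnt and R-spondin genes 3 were higher in LE and 12 lower. Wnt4, a ligand needed in uterine development and decidualization, had 120.2, 76.1, 130.5 and 121 CPM in LE, against 53.8, 49.8, 53.5 and 44.1 CPM in U (1.13, SE 0.18, adjusted p = 0.00175), without overlap. Wnt7b is given above, and the third, Lgr4, an R-spondin receptor, rose by 0.49 (adjusted p = 0.0415) but was not called when any of the 4 mice was left out (0.50, 0.43, 0.52 and 0.54). Wnt5a, a ligand of the stroma, had 50.1, 45.9, 22 and 33 CPM in LE, against 114, 76.5, 129 and 125 CPM in U (−1.59, SE 0.29, adjusted p = 0.00381). Secreted Wnt regulators did not all move alike. Sfrp4 had 1.39, 2.19, 0.564 and 0.208 CPM in LE, against 259.6, 271, 272 and 379 CPM in U (−8.13, SE 0.53), and Rspo3, which strengthens Wnt signals, had 4.49 ± 2.5 CPM in LE and 148 ± 12.3 CPM in U (−5.16, SE 0.38). Dkk2, a Wnt antagonist, fell by 5.27 (SE 0.32). Sfrp1, a relative of Sfrp4, was not called (0.59, adjusted p = 0.203), except without mouse 27 (1.01, adjusted p = 0.0227). The lower calls of Wnt2 (−3.62), Wnt6 (−2.96), Rspo1 (−0.75) and Sfrp2 (−1.85) were lost without mouse 25 or mouse 26.

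FGF and EGF family genes lay on both sides, ligands and receptors alike. Of 9 tested FGF genes 3 were higher and 5 lower. Fgf9, a ligand, had 40.2, 16.4, 37.9 and 37.3 CPM in LE, against 13, 10.4, 9.85 and 13.4 CPM in U (1.43, SE 0.24, adjusted p = 0.00261), and the ligand Fgf1 rose by 1.39, whereas Fgf10, a ligand of mesenchyme, had 0.398, 0.0625, 0.047 and 0 CPM in LE, against 3.38, 3.99, 8.37 and 3.41 CPM in U (−5.27, SE 0.85, adjusted p = 0.00212). The receptor gene Fgfr2, whose epithelial splice form binds stromal ligands, had 16.6, 10.9, 16.1 and 31.7 CPM in LE, against 95.4, 61.2, 55.7 and 74.8 CPM in U (−2.01, SE 0.25, adjusted p = 0.000621), lower in LE of every mouse, whereas the receptor gene Fgfr3 rose by 1.76 (SE 0.41, adjusted p = 0.0112). Splice forms are not separated in these tables. Of 8 EGF family genes 5 were higher and 1 lower. The ligand Tgfa had 31.4, 32.7, 29.7 and 32.1 CPM in LE, against 14.1, 11.8, 14.7 and 18.6 CPM in U (1.10, SE 0.18, adjusted p = 0.00245), a narrow range in both tissues. Erbb3, a receptor, rose by 1.26 (adjusted p = 0.0016) and Erbb2, its partner, by 1.15 (adjusted p = 0.00478). Neither was called without the mouse as a block (1.24, adjusted p = 0.146, for Erbb3 and 1.22, adjusted p = 0.0649, for Erbb2). Nrg1, a ligand of these receptors, fell by 3.68. The count of genes called higher was 3 without mouse 26 and 1 without the mouse as a block.

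Insulin-like growth factor genes were lower in LE. Of 10 tested IGF genes 8 were called lower and none higher. Igf1, a growth factor that the stroma makes under oestrogen, had 11.2, 10.3, 7.84 and 5.27 CPM in LE, against 32.7, 60.1, 48.9 and 50.6 CPM in U (−2.49, SE 0.28, adjusted p = 0.000448). Igfbp4, which binds it, had 53.4, 67.3, 33.2 and 30.4 CPM in LE, against 401, 540.2, 552 and 480.1 CPM in U (−3.48, SE 0.26, adjusted p = 8.54e-05). The groups did not overlap for either gene, while the receptor gene Igf1r had 242 ± 62.8 CPM in LE and 198 ± 47.3 CPM in U and was not called. Of 7 genes of the LIF and STAT3 group 2 were called higher, Lif, described above, and Osmr, the oncostatin M receptor, with 444, 296, 345 and 393 CPM in LE, against 233, 145, 144 and 279 CPM in U (0.93, SE 0.17, adjusted p = 0.00327). Lifr, the receptor for Lif, had 30.9 ± 18 CPM in LE and 31.2 ± 11.9 CPM in U and did not pass (−0.087).

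**Figure D4:**
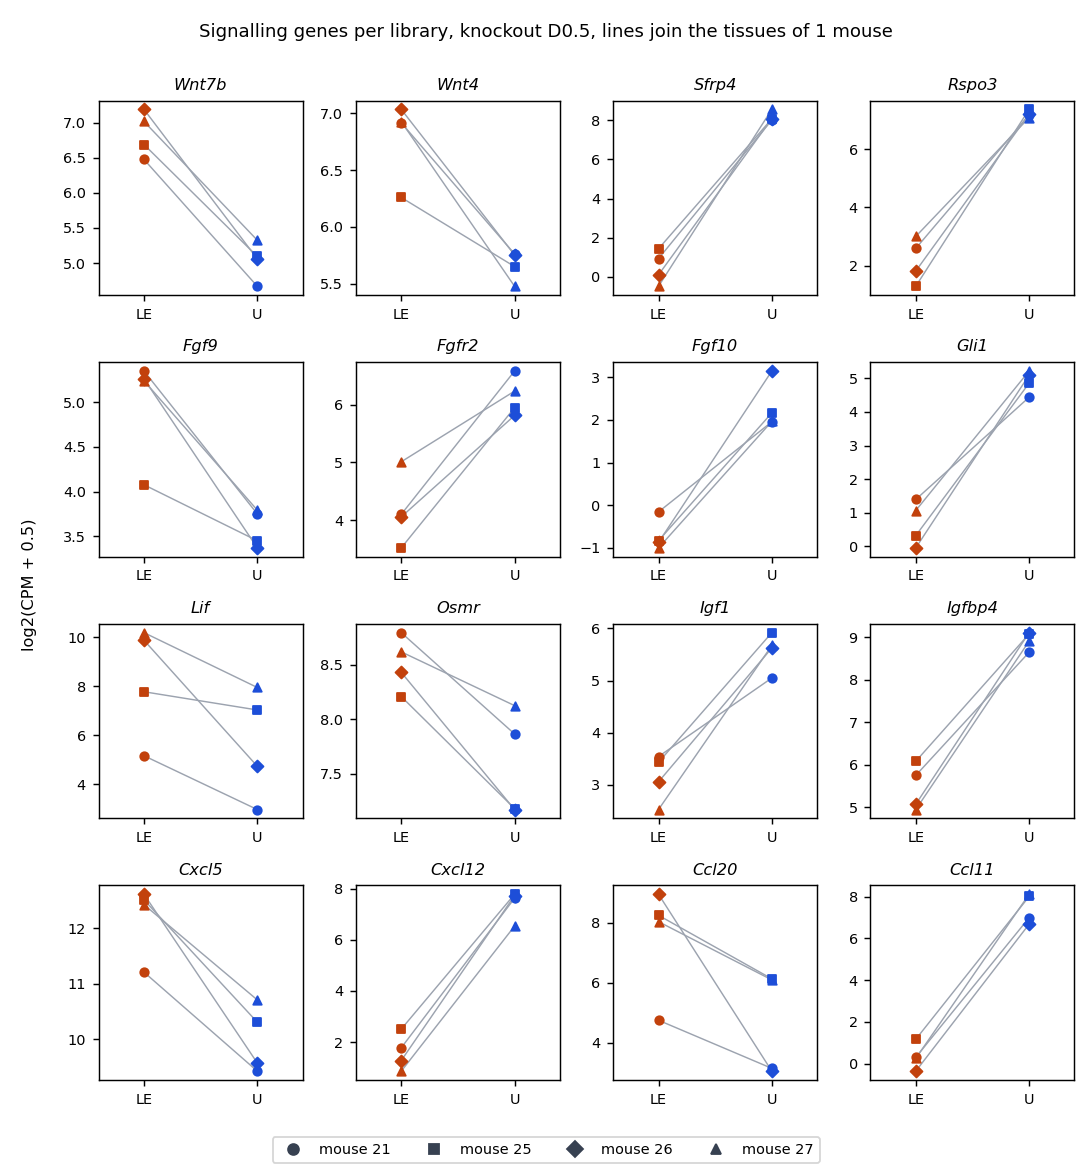
Level per library as log2(CPM + 0.5) in LE (left) and U (right) for 16 signalling genes, with a line for each of the 4 knockout D0.5 mice. Wnt7b, Wnt4, Fgf9, Osmr and Cxcl5 lie higher in LE than in U in every mouse, while Sfrp4, Rspo3, Gli1, Igfbp4, Cxcl12 and Ccl11 lie near the bottom in LE and near the top in U.

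Genes that the uterine epithelium is known to induce under oestrogen were higher in LE of these Esr1 knockout mice for 12 of 14 members, with a median of 1.87. Ltf, the iron-binding protein lactoferrin, had 12560, 8034, 10140 and 11180 CPM in LE, against 3208, 2207, 2543 and 2276 CPM in U (2.03, SE 0.15, adjusted p = 8.55e-05), and Lcn2, the siderophore-binding lipocalin 2, had 19410, 14370, 13160 and 16690 CPM in LE, against 5130, 4051, 2775 and 3534 CPM in U (2.06, SE 0.15, adjusted p = 9.1e-05). Neither gene overlapped between the tissues. C3, the central complement protein, rose by 1.77, and Clca1, a secreted regulator of chloride channels, by 1.97. These are tissue differences within knockout mice and say nothing of a response to oestrogen. Padi2, an arginine deiminase, and Inhbb, an activin subunit, were not called (−0.038 and −0.39). Single members of the Sprr2 and Clca families are uncertain, as their reads may be shared.

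Most mucosal defence and transport genes were higher in LE. Of 15 tested mucosal genes 12 were higher and 1 lower, and of 19 tested water and ion transport genes 14 were higher and 2 lower. Pigr, which carries antibodies across epithelium, had 7845, 8475, 6893 and 3022 CPM in LE, against 2707, 1689, 1993 and 982 CPM in U (1.82, adjusted p = 0.000246), lowest in both tissues of mouse 27. Muc4, a membrane mucin, had 4379 ± 915 CPM in LE and 1116 ± 611 CPM in U (2.13, SE 0.30), and Muc20, another, rose by 2.17. The mucosal exception was Lyz2, the lysozyme of myeloid cells, with 81.5, 53.8, 24.5 and 72.2 CPM in LE, against 329.7, 342, 246 and 382 CPM in U (−2.60, adjusted p = 0.000163). Slc26a4, an anion exchanger, had 525, 289, 404 and 798 CPM in LE, against 141, 40.7, 36.1 and 189.9 CPM in U (2.57, SE 0.28, adjusted p = 0.000372), and Cftr, the chloride channel of cystic fibrosis, rose by 1.97 (SE 0.26). Aqp1, a water channel of vessels, fell by 4.27 (SE 0.34).

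Cell junction genes were higher for 22 of 26, and the single gene called lower was Gja1, the gap junction protein connexin 43, with 25, 40.4, 17.2 and 128 CPM in LE, against 92.3, 149, 125 and 176 CPM in U (−1.77, SE 0.35, adjusted p = 0.00532). LE of mouse 27 exceeded U of mouse 21, so the groups overlapped, and Gja1 was not called without the mouse as a block (−1.37). Tjp3, a scaffold of tight junctions, rose by 1.71 (SE 0.17), F11r, a junctional adhesion molecule, by 1.55 (SE 0.13), and Ocln, occludin, by 1.50 (SE 0.15). Of 30 basement membrane and matrix genes 22 were lower and 5 higher. Among the higher ones were the laminin chains Lama3 (1.15), Lamb3 (1.84) and Lama5 (1.60), with the collagen Col17a1 (2.39), all of the basement membrane of epithelia or its anchorage. Lamb1, a laminin chain of other basement membranes, had 58.2, 59.9, 45.7 and 31.9 CPM in LE, against 206, 386, 413 and 383 CPM in U (−2.82, SE 0.29), and Col15a1, a collagen beneath vessels and muscle, fell by 6.88.

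Transcription factors of epithelium and mesenchyme lay mostly on opposite sides. Of 17 epithelial factors 14 were higher and 1 lower, and all 17 mesenchymal factors were lower (median −3.78). Elf3 and Ehf, ETS factors of epithelia, rose by 1.87 (SE 0.16) and 1.83 (SE 0.23), and Msx2, a homeobox factor of the uterine epithelium, had 24.2, 24.2, 36.8 and 27.7 CPM in LE, against 7.03, 6.13, 8.49 and 9.88 CPM in U (1.84, SE 0.20, adjusted p = 0.000326). Emx2, a homeobox gene of the reproductive tract, was the one called lower (−0.52, adjusted p = 0.0355), and that call was lost without mouse 21 (−0.54), 26 (−0.39) or 27 (−0.51). Hoxa10 and Hoxa11, which pattern the uterus and act in stroma, had 2 ± 1.36 and 1.21 ± 0.847 CPM in LE, against 95.8 ± 19.4 and 72.4 ± 12.3 CPM in U. Zeb1, a repressor of epithelial genes, had 5.29, 6.5, 0.752 and 4.58 CPM in LE, against 53.9, 55.1, 43.4 and 87.4 CPM in U (−4.00, SE 0.43).

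Genes of the secretory pathway moved together. Of 16 tested unfolded protein response genes 15 were called higher and none lower, with a median of 1.33. Hspa5, the chaperone BiP of the endoplasmic reticulum, had 1701, 2419, 2423 and 2858 CPM in LE, against 824, 631, 691 and 1372 CPM in U (1.46, SE 0.20, adjusted p = 0.00106), and Calr, the chaperone calreticulin, had 2509 ± 218 CPM in LE and 904 ± 101 CPM in U (1.48, SE 0.14). Ddit3, the stress factor CHOP, was the member not called (0.10). Of 20 cholesterol synthesis genes 10 were higher and none lower. Mvd, an enzyme of the mevalonate pathway, had 50.2, 97.5, 148 and 145 CPM in LE, against 21.2, 43.5, 28.2 and 45 CPM in U (1.62, SE 0.23, adjusted p = 0.00108). Every LE library lay above every U library. Of the list, 6 members were called without mouse 25, 5 without mouse 27, 6 without the mouse as a block and 5 with limma on log2(TPM + 1).

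Cell cycle genes were lower for 10 of 26 and higher for none, beside 23.5% lower and 17.9% higher over all genes tested. The count of 10 became 4 without the mouse as a block or with 7 LE libraries, 2 against a log2 fold change of 1 and 16 with limma on log2(TPM + 1). Mki67, a marker of dividing cells, had 8.27, 15.8, 3.66 and 65.4 CPM in LE, against 27.3, 29.3, 33 and 121 CPM in U (−1.62, SE 0.37, adjusted p = 0.0107). Mouse 27 held the highest level in each tissue, and its LE library exceeded U of the 3 other mice. Ccna2, cyclin A2, fell by 1.75 (SE 0.40) with the mouse as a block and was not called without it (−1.20, adjusted p = 0.347). Pcna, a clamp of replicating DNA, had 52.6 ± 10.7 CPM in LE and 54.7 ± 8.94 CPM in U (−0.066).

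Immediate early genes, which dissociation of tissue can induce, were called higher for 7 of 24 and lower for 2. Over all genes tested the shares were 17.9% higher and 23.5% lower. The part of dissociation in these values was not tested. Fos, a subunit of the AP-1 factor, had 322, 272, 292 and 455 CPM in LE, against 27.5, 69.6, 51.8 and 89.8 CPM in U (2.58, SE 0.26, adjusted p = 0.000282), and Fosb, its relative, had 22.7, 29.9, 10.8 and 19.5 CPM in LE, against 1.2, 5.48, 1.73 and 4.59 CPM in U (2.80, SE 0.37, adjusted p = 0.000842), both without overlap. Egr2 and Egr3, zinc finger factors, were lower (−1.69 and −3.44). Egr2 was not called without mouse 27 (−1.51), nor Egr3 without mouse 25 (−2.63) or 27 (−3.07), and 12 members were called higher without mouse 25. Against DU, which shares the digestion with LE, Fos was 1.97 (SE 0.20, adjusted p = 0.000964) in mice 25, 26 and 27.

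Prostaglandin genes lay on both sides, with 6 of 14 higher and 5 lower, and 3 higher without the mouse as a block. Ptgs2, the inducible cyclooxygenase, had 334, 391, 741 and 1778 CPM in LE, against 81.1, 145, 58.1 and 457 CPM in U (2.26, SE 0.35, adjusted p = 0.00169), where U of mouse 27 exceeded LE of mice 21 and 25. Pla2g4a, the phospholipase that frees arachidonic acid, rose by 1.15 (SE 0.16). Ptgfr and Ptgir, receptors for prostaglandin F and prostacyclin, fell by 6.49 (SE 0.61) and 5.84 (SE 0.78), and Ptgis, which makes prostacyclin, by 1.60. Ptger2, a prostaglandin E receptor, rose by 1.22 (adjusted p = 0.00175). Of 15 retinoic acid genes 3 were higher and 5 lower, near the shares of all genes (17.9% and 23.5%), and 3 were lower without mouse 26 or 27. Stra6, a retinol transporter, had 54.4, 65.5, 75.4 and 61.7 CPM in LE, against 33, 15, 13.4 and 30.6 CPM in U (1.59, SE 0.31, adjusted p = 0.00536), and Aldh1a2, which makes retinoic acid, had 11.1, 14.5, 8.74 and 8.4 CPM in LE, against 42.7, 43.6, 60.4 and 72.5 CPM in U (−2.35, SE 0.28, adjusted p = 0.000543). Rara, a retinoic acid receptor, was called higher at 0.58 (adjusted p = 0.0488) and lost that call without mouse 21 (0.50), 26 (0.49) or 27 (0.52).

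DU, which was digested but not scraped, was compared with U and LE in the 3 mice that had it. As each tissue was 1 isolation batch, digestion and batch cannot be told apart in DU against U. Nor can tissue, scraping and batch in LE over DU. Of 15226 genes tested in DU against U, edgeR called 0, with 1971 at an unadjusted p under 0.05. With 3 mice, the lack of calls does not show that DU and U were alike. In LE over DU, 3573 genes (24.2% of 14747 tested) were called higher and 3616 (24.5%) lower. Epcam was 2.02 (SE 0.12, adjusted p = 0.000328) and Dcn −2.57 (SE 0.26, adjusted p = 0.00103) on the log2 scale in LE over DU. Esr1 was −1.63 (SE 0.13, adjusted p = 0.000512), against −1.29 over U in 4 mice. Of the chemokine and cytokine genes, Csf3 was 2.50 (adjusted p = 0.0385) and Ccl20 3.01 (adjusted p = 0.0127), while Cxcl1 (1.96, adjusted p = 0.0677) and Il6 (2.74, adjusted p = 0.0554) did not pass.

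The tissue difference of the knockout was then set against that of 6 control mice of D0.5, by the interaction of genotype and tissue in a fit of 17 mice with both tissues. Of 16631 genes tested, 171 (1.03%) had a higher log2 fold change of LE over U in knockout and 91 (0.547%) a lower one, and 1926 had an unadjusted p under 0.05. None of the 16 general epithelial genes was among those called, where 1.58% of all genes tested were called. With so small a share, this count does not show that the genotypes were alike. The median LE over U of the 16 genes was 1.69 in knockout and 1.38 in control in this fit. Their median difference was 0.35, against 0.0051 over all genes. The values below carry the scaling of that fit and cover only mice with both tissues.

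Genes named for the highest differences were mostly low in control epithelium. Postn, the matrix protein periostin, had 108 to 434 CPM in LE of knockout mice and 0.427 to 6.29 CPM in LE of control mice, with 410 to 1090 CPM in knockout U and 498 to 870 CPM in control U. LE of the genotypes did not overlap, and the difference was 7.13 (SE 0.96, adjusted p = 0.000801). Muc5b had 1.96 to 27.2 CPM in knockout LE and 0.0554 to 0.595 CPM in control LE, a difference of 8.08 (SE 1.13, adjusted p = 0.00135). Control U had 0.436 to 5.84 CPM of Muc5b, mostly above the knockout U levels given earlier. The difference thus comes from U as well as from LE. Reg3g, an antimicrobial lectin, had 16.8 to 85.2 CPM in knockout LE and 0 to 0.285 CPM in control LE, and reads may be shared with its close relatives (5.82, adjusted p = 0.0124). Chrm3, a muscarinic acetylcholine receptor, Cyp2f2, a cytochrome P450 of airway epithelium, and Scara3, a scavenger receptor, differed by 5.86, 5.14 and 4.91. Retnlg had 18.3 to 99.2 CPM in knockout LE and 0.277 to 2.02 CPM in control LE (5.27, adjusted p = 0.000899). It was the 1 neutrophil marker of 9 called in this difference. The median difference of the 9 was 1.69, against 0.0051 over all genes. In the same fit their median LE over U was −0.13 in knockout, with 1 called lower, and −1.82 in control, with 7 called lower. The part of neutrophils in the genes higher in knockout LE was not tested.

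Ly6c2, a surface protein of monocytes with near-identical relatives, differed by 4.07 (adjusted p = 0.0238). Its call was lost without control mouse 5 (3.90) or 9 (3.71) and without knockout mouse 21 (3.65), 26 (4.12) or 27 (4.11), and without the mouse as a block (2.64).

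The 8 genes named for the lowest differences were low in knockout epithelium. Add2, an adducin of the membrane skeleton, had 0 to 0.44 CPM in knockout LE and 24.1 to 204 CPM in control LE, a difference of −5.74 (SE 0.56, adjusted p = 3.81e-05). Greb1, a target of oestrogen receptor alpha, had 0 to 2.08 CPM in knockout LE and 6.78 to 133 CPM in control LE (−3.98, SE 0.68, adjusted p = 0.00424), and it was not called on log2(TPM + 1) (−1.42). Pcdh17, a protocadherin, had 0.197 to 5.16 CPM in knockout LE and 43.6 to 194 CPM in control LE (−4.62, adjusted p = 0.00269), and was not called without the mouse as a block (−3.91). For Add2, Greb1 and Pcdh17 LE of the genotypes did not overlap. Coch, a secreted protein of the inner ear, Nav3, a neuron navigator, Lpar1, a lysophosphatidic acid receptor, and Ret, a receptor tyrosine kinase, differed by −5.17, −4.69, −4.51 and −3.22. Papln, a matrix papilin, differed by −3.23 and was not called without knockout mouse 27 (−2.97). The full palindromic consensus of the oestrogen response element was searched on both strands. It matched in 0 of 17 promoter windows of 12 of the named genes of this comparison and in 0.07% of all 32851 windows. Because the full match is so rare, 0 of 17 cannot decide whether the receptor acts on these genes directly.

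**Figure D5:**
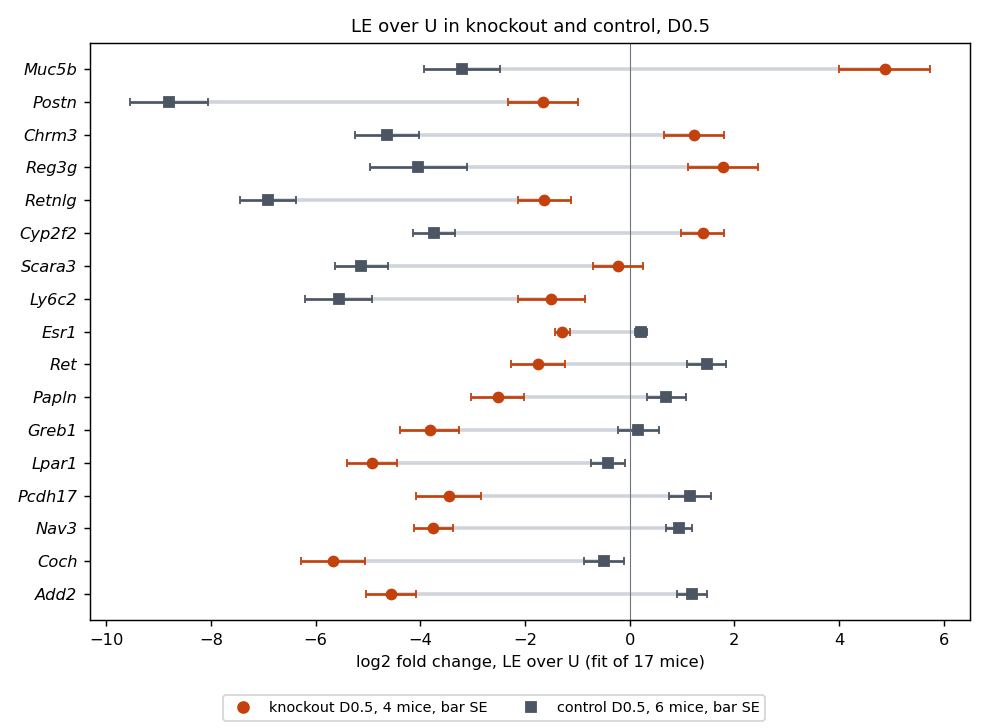
Log2 fold change of LE over U (x axis) in knockout D0.5 (circles, 4 mice) and control D0.5 (squares, 6 mice) from the fit of 17 mice, with bars of 1 SE, for Esr1 and the genes named for the largest differences (rows). Muc5b lies at 4.87 in knockout and −3.21 in control, and Add2 at −4.56 in knockout and 1.18 in control.

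Besides Esr1, Postn, Reg3g and Retnlg, given above, further list members had a called difference, where 1.58% of all genes tested had one. Foxa2 had 40.8 to 116 CPM in knockout LE and 1.35 to 25.5 CPM in control LE, with a tissue difference of 1.78 in knockout and −0.96 in control (difference 2.74, adjusted p = 0.0258). Cxcl15, the other gland gene called, differed by 3.93 (adjusted p = 0.0219). Of the junction genes, Cldn8 differed by 2.82 and Gja1 by −2.02. Fbln1, Lamb1 and Flt1, a vascular growth factor receptor, had lower tissue differences in the knockout (−1.54, −2.09 and −2.28), as had Ptger4, a prostaglandin E receptor (−1.58). Macrophage markers Cx3cr1 and Ms4a7 differed by 1.95 and 3.89. The retinoid genes Stra6, Dhrs3 and Rarb differed by 2.39, 1.46 and 4.71. They were 3 of 15 tested on that list, beside 1.03% of all genes called higher.

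Against the 4 knockout mice of D3.5, when progesterone action is high, many more genes differed. The log2 fold change of LE over U was higher at D0.5 for 1030 genes (6.19%) and lower for 1784 (10.7%). The median difference over all genes was −0.16. The share of higher among the called varied with the processing and the mice. It was 36.6% in the main fit with TMM and 46.8% with median-of-ratios factors. With no filter on low counts it was 50.3%, and with limma on log2(TPM + 1) 18%. Leaving out 1 mouse gave 35.6% (without D3.5 mouse 34) to 52% (without D3.5 mouse 35). The differences share the knockout D0.5 libraries with the comparison to control. A lower tissue difference at D0.5 was called for 13 of 27 junction genes, 14 of 17 epithelial transcription factors and 11 of 16 general epithelial genes, and a higher one for none of these. Of the unfolded protein response list 11 of 16 were higher at D0.5 and none lower. Neutrophil markers had a median difference of 1.70, with 2 of 9 called higher, and their part in the other genes was not tested.

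Single genes changed by large steps between the days. Slc2a12, a glucose transporter, had 1.67 to 8.59 CPM in LE at D0.5 and 391 to 981 CPM at D3.5, with 29.5 to 50 CPM and 83.5 to 111 CPM in U on the same days (−6.11, SE 0.55, adjusted p = 3.2e-06). Nos2, the inducible nitric oxide synthase, had 107 to 723 CPM in LE at D0.5 and 0 to 0.342 CPM at D3.5 (6.19, SE 1.05, adjusted p = 0.000652). For both genes LE of the days did not overlap. Mitf, a transcription factor, had 1.28 to 2.83 CPM at D0.5 and 9.48 to 12.4 CPM at D3.5 in LE, and 74 to 131 CPM at D0.5 and 17.5 to 22.1 CPM at D3.5 in U, so that both tissues separated the days (−4.97, SE 0.35). Fst, the activin-binding follistatin, had 5.6 to 31.9 CPM at D0.5 and 0.149 to 1.56 CPM at D3.5 in LE, and 3.29 to 30.7 CPM at D0.5 and 57.5 to 77.1 CPM at D3.5 in U, a difference of 6.51. Fkbp11, a chaperone of the secretory pathway, and Sptlc3, an enzyme of sphingolipid synthesis, differed by 5.99 and −5.99. Muc5b differed by 5.96, and its call was lost without knockout D3.5 mouse 32 (5.59) or 34 (4.26) or D0.5 mouse 25 (5.56), while without D3.5 mouse 35 it was 9.66.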

How the data were processed

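RNA sequencing of 59 uterine libraries was used, 8 of them for the paired comparison and 34 libraries of 17 mice for the differences between groups. The authors deposited estimated counts and TPM values per gene. Per the submitters' processing notes, kallisto 0.46.1 and GRCm39 were used; the summing of transcripts to genes is not stated. TPM values, deposited by the authors, entered 1 alternative. Estimated counts were rounded to whole numbers, scaled by TMM and filtered with filterByExpr (minimum count 10, minimum total 15). Genes were tested with edgeR 4.0.16 in R 4.3.3 (glmQLFit and glmQLFTest) with the mouse as a block, with Benjamini-Hochberg adjustment over every gene of a comparison and calls under 0.05. The biological coefficient of variation was 0.287 in the paired fit and 0.315 in the fit of 17 mice. No column of the tables was left out of the mapping.

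By the labels, LE and U of 1 number are from 1 animal. Their deviations from the group means correlated at 0.511, 0.171, 0.205 and 0.436 in the 4 mice, and each LE library correlated best with its own number. Over the 17 mice with both tissues the median was 0.356, and the lowest was −0.239 in control D3.5 mouse 11. That mouse entered the fit of 17 mice, in which all groups share 1 estimate of the spread. Each mouse is a separate animal. Replicates of a group differed beyond sampling noise (chi-square per degree of freedom at least 57.3 over 12 pairs).

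The rule for named genes took Esr1, Pgr and Wnt7a, the 10 highest and 10 lowest called genes with at least 10 CPM in the higher tissue and 1 sign in all pairs, up to 4 called members of each of 36 gene lists and up to 3 against their list's direction, and 8 genes in each direction for each difference. Predicted genes were not named, some lists stand only as counts, and list members given beyond the rule were chosen after their values were seen. The members, lists and tests were chosen with earlier results of these data known. Alternatives were median-of-ratios factors, no filter, the Wald test of DESeq2 1.42.0, limma 3.58.1 on log2(TPM + 1), no block, other sets of mice, DU in place of U, a test against a log2 fold change of 1 and each mouse left out. Scripts were tested on simulated data. Promoter sequences are from RefSeq, GRCm38.p6. Some members of the lists are counted but not reported here by name.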

Additional observations from a re-analysis of the deposited data

Results flagged for a closer look

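In groups of 4 libraries, a library was marked where its gap to the nearest other took up more of the group's range than Dixon's 95% critical value allows. Of 118 such tests 9 marked one, where chance marks about 1 in 20. Marked levels in LE were Pgr in mouse 21 (26.2 CPM), Hmcn2 in mouse 21 (0.171 CPM) and the mean log2(CPM + 0.5) of the prostaglandin list in mouse 27 (4.79). The other LE libraries held no count of Hmcn2, so any count in mouse 21 would have been marked. Marked levels in U were Aqp4 in mouse 21 (103 CPM), Muc13 in mouse 21 (5.47 CPM), Il6 in mouse 27 (9.57 CPM), and the mean log2(CPM + 0.5) of mesothelial genes in mouse 26 (1.41), steroid receptor genes in mouse 25 (3.82) and mesenchymal transcription factors in mouse 21 (4.72).

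The difference of the tissue fold change between knockout and control at D0.5, tested as an interaction with edgeR, marked 171 genes with a higher value and 91 with a lower value in knockout. On the log2 scale the higher ones named were Muc5b (8.08), Postn (7.13), Chrm3 (5.86), Reg3g (5.82), Retnlg (5.27), Cyp2f2 (5.14), Scara3 (4.91) and Ly6c2 (4.07). The lower ones were Add2 (−5.74), Coch (−5.17), Nav3 (−4.69), Pcdh17 (−4.62), Lpar1 (−4.51), Greb1 (−3.98), Papln (−3.23) and Ret (−3.22). List members marked were Foxa2 (2.74), Cxcl15 (3.93), Ms4a7 (3.89), Cx3cr1 (1.95), Cldn8 (2.82), Stra6 (2.39), Dhrs3 (1.46), Rarb (4.71), Esr1 (−1.50), Fbln1 (−1.54), Flt1 (−2.28), Gja1 (−2.02), Lamb1 (−2.09) and Ptger4 (−1.58).

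The same interaction between knockout D0.5 and knockout D3.5 marked 1030 genes with a higher and 1784 with a lower tissue fold change at D0.5. The higher ones named were Il1r2 (8.70), Shisa3 (6.96), Fst (6.51), Tuba8 (6.25), Nos2 (6.19), Retnlg (6.15), Fkbp11 (5.99) and Muc5b (5.96). The lower ones were Cemip (−6.60), Trhde (−6.59), Slc2a12 (−6.11), Sptlc3 (−5.99), Tmod1 (−5.83), Mcoln2 (−5.13), Mitf (−4.97) and Atoh8 (−4.97). LE of D3.5 held no count of Il1r2, and LE of D0.5 none of Trhde, so their fitted values are no bounds. Without knockout mouse 21 Tmod1 was −11.

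Krt5, Krt14 and Krt15 were high in LE of mice 21 and 25, Lif, Csf3, Cxcl1 and Il6 in LE of mice 26 and 27, and Ifi44 and Rsad2 in both tissues of mouse 21. The causes of these differences between mice were not tested.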

How the results depend on the processing

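For LE against U, 2683 genes higher and 3536 lower became 520 and 1866 when tested against a log2 fold change of 1, 1460 higher with limma on log2(TPM + 1), 1971 and 2977 with no replicate block, and 1812 to 2474 higher and 2644 to 3472 lower with each mouse left out. The share of higher among the called was 43.1%, and 25.9% with TPM, where the median of all genes was −0.24 (−0.05 with TMM). Esr1 was −1.29, not called against a log2 fold change of 1, and −1.44 to −1.18 with a mouse left out. For the difference to control, 171 higher became 459 with DESeq2 and 81 with no replicate block, and 102 to 262 with a mouse left out. Of these, 262 were without control mouse 2, 111 without control mouse 9, 112 without knockout mouse 21 and 102 without knockout mouse 27. The 91 lower became 225 with DESeq2 and 53 with no replicate block, and 50 to 121 with a mouse left out, with 59 without control mouse 5 and 57, 51 and 50 without knockout mice 25, 26 and 27. For the difference to D3.5, 1030 higher became 1726 with DESeq2, 558 with TPM, 552 with no replicate block and 690 to 1174 with a mouse left out. The 1784 lower became 993 with no replicate block and 1038 to 1782 with a mouse left out, with 1038, 1084 and 1043 without D3.5 mice 32, 35 and 37. The causes were not tested. Of 2536 values of named genes under these settings 2407 kept direction and side of the threshold, 119 lost the call, 10 gained it and none turned its sign. The 4 mice limit the precision, and genes under about 1 CPM rest on few counts.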

Other observations

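Gene groups outside the lists above were looked at after the data were seen, and support nothing by themselves. Mitochondrially encoded genes were called higher in LE for 11 of 13 tested and lower for none, with a median log2 fold change of 1.03. Their sum was 47850 to 90380 CPM in LE and 28550 to 37720 CPM in U. Cytosolic ribosomal protein genes were called lower for 27 of 80 and higher for none (median −0.40), with sums of 32950 to 53440 CPM in LE and 45550 to 76440 CPM in U. Genes of basal and stratified epithelium were called higher for 10 of 11 (median 3.44), with sums of 381 to 1118 CPM in LE and 86.4 to 118 CPM in U. That list includes Krt5, Krt14, Krt15 and Fat2, already named for their high folds, so its count is no separate result. Its level differed between mice, with a mean log2(CPM + 0.5) in LE of 4.05, 4.37, 1.975 and 0.98 in mice 21, 25, 26 and 27. Plasma cell genes were lower for 2 of 3, with 4.94 to 10.4 CPM in LE and 61.4 to 89.5 CPM in U.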
